A study of Rattus norvegicus with 20 samples.

Results

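Matricellular proteins are secreted into the extracellular matrix but act on cells more than they bear load. They bind integrins, collagens and growth factors, are scarce in healthy adult myocardium, and are known to be made again by fibroblasts, muscle cells and macrophages after infarction or under pressure overload. The 8 genes considered here were Postn (periostin), Thbs1 and Thbs4 (thrombospondins), Ccn2 (connective tissue growth factor), Spp1 (osteopontin), Sparc (osteonectin), Tnc (tenascin C) and Ltbp2 (a latent TGF-beta binding protein). They were chosen by symbol, as genes of this family, with the mRNA differences between the hearts already known, so their mRNA values are a description. In the annotation used, 8 probe sets carried the symbol of a member and no other gene. They gave 7 measured genes of 14217 in all, with 2 probe sets for Sparc and 1 for each of the others; for Thbs1 no probe set was listed under that symbol, and it is not analysed here.

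Left ventricle of Dahl rats, lines bred for the response of their blood pressure to dietary salt, was measured on 20 Affymetrix rat expression arrays, 10 for a normal and 10 for a failed heart. For each heart there was 1 array of mRNA, 1 of genomic DNA before immunoprecipitation (pre-IP), and 1 for each of 8 chromatin immunoprecipitations (ChIP): acetylated histones H3 (H3ac) and H4 (H4ac), and methylated lysines named K4me2, K4me3, K9me2, K9me3, then K27me2 and K20me3, whose histone the labels leave out. The failed heart is labelled as congestive heart failure (CHF). An age of 19 weeks is given for every sample except the normal H4ac sample, and a high-sodium diet only for the failed mRNA sample; no source used here gives the normal animal's diet or the Dahl substrain. Each experiment used a single ventricle specimen, so no value has a replicate error and no test between hearts was possible.

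Levels are intensities rescaled so that each array has a median of 100, and values under 10 were set to 10. A difference is always failed minus normal on the log2 scale, where 1 is 2-fold. Enrichment of a mark is the log2 ChIP level less the log2 pre-IP level, both from 1 heart. The arrays were designed for transcripts, so ChIP values describe DNA under transcript probes and not the promoter. Shares over all genes, and the members' counts set beside them, cover only genes that passed a level filter, a mean log2 level at or above that of the array median across the arrays that enter the difference. Counts over all measured members or over all their marks also hold values below that filter.

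The array medians as deposited ran from 189 to 415, and the number of arrays limits the precision. The source label of the normal H4ac array names pre-IP DNA while its title names H4ac. Its log2 levels correlated at r = 0.93 with the failed H4ac array and at 0.82 with the normal pre-IP array over 31042 probe sets, while the 2 pre-IP arrays correlated at 0.84; it was used as H4ac. The mRNA is labelled as from ventricular myocytes. All 13 measured cardiomyocyte markers passed the level filter, and so did 11 of 12 fibroblast, 12 of 13 macrophage and 8 of 8 measured endothelial markers. In such bulk samples fewer cells of a type and less RNA per cell cannot be told apart.

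The sequences before the RefSeq start sites (build GRCr8) are shown for Postn, Ltbp2, Thbs4 and Ccn2, because these 4 had the largest mRNA differences of the family. Each runs 5′ to 3′ on the gene's strand over the 250 bases before the start, and the last base adjoins it. Capitals mark every match to the motifs searched on both strands: TATAAA (the TATA box), TGANTCA (bound by AP-1), GGAATG (bound by TEAD factors), CAGACA (a Smad box with its flank) and the SRF CArG box. A match on the other strand reads as its reverse complement.
Postn, chr2:140677811-140678060, plus strand: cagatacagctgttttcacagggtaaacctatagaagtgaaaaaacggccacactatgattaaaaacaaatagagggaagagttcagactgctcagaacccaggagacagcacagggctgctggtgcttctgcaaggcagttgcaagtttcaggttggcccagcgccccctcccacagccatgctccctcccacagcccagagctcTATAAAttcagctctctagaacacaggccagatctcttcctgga
Ltbp2, chr6:110257299-110257548, minus strand: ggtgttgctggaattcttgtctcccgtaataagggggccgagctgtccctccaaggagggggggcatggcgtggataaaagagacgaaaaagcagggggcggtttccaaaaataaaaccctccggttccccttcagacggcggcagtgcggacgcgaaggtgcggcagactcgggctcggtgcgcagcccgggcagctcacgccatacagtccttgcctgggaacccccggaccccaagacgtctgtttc
Thbs4, chr2:25760346-25760595, minus strand: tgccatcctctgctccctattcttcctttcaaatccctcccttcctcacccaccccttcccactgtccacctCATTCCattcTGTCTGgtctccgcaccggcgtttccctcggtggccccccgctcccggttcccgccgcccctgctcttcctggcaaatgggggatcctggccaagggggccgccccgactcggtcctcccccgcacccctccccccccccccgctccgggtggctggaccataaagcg
Ccn2, chr1:22624615-22624864, minus strand: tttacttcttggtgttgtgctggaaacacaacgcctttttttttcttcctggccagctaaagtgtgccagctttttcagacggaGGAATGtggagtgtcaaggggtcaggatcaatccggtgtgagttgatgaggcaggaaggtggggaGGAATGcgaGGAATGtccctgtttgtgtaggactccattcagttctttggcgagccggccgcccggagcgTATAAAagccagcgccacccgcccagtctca

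Postn held TATAAA from 44 to 39 bases before its start, and Ccn2 from 31 to 26. In Spp1 and Tnc, whose windows are not shown, it lay farther from the start, from 204 to 199 and from 208 to 203. Ccn2, a known target of the Hippo pathway through TEAD factors, also held GGAATG at 3 places, the first bases of which lay 166, 101 and 92 before the start. Thbs4 held GGAATG and CAGACA on the other strand, 178 to 173 and 168 to 163 bases before its start. Ltbp2 held none of the motifs but had 19 CG pairs, against 2 in Postn and a median of 5 over all 33469 windows. Over the 8 members TATAAA was in 4 windows (Postn, Ccn2, Spp1 and Tnc) and in 12.9% of all windows, GGAATG in 4 (Thbs1, Thbs4, Ccn2 and Sparc) and in 12.1%, and CAGACA in 3 (Thbs4, Sparc and Tnc) and in 17.2%. TGANTCA was in 0 of the 8 members' windows and in 6.34% of all, and the SRF CArG box in 0 and in 1.50%. These are matches of letters, and matches of different motifs did not overlap in the windows shown.

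The mRNA comparison asked how far the family differed between the hearts. Of the 7 measured genes 5 had at least 2-fold more mRNA in the failed heart: Postn, Ltbp2, Thbs4, Ccn2 and Spp1. Sparc was higher by less than 2-fold, and Tnc was near the array median in both hearts. Of the 6 that passed the level filter, 5 were higher by 2-fold or more and 0 were lower, while over all 9210 genes passing it 11.9% were higher and 3.07% lower. Spp1 passed only through its level in the failed heart, as did 165 of the 1092 genes that were at least 2-fold higher, so their entry into the count was tied to the difference. The median difference of the 7 genes was 3.04, against 0.23 over all genes passing the filter.

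Postn, a protein with fasciclin domains that links collagen fibres and signals through integrins, had an mRNA level of 301 in the normal heart and 8257 in the failed heart. That is a difference of 4.78, or 27.4-fold, and placed it at rank 1 of the 9210 genes. Ltbp2, which binds fibrillin microfibrils and, unlike other proteins of its family, does not hold latent TGF-beta, followed at rank 2. Its level was 149 in the normal heart and 3930 in the failed heart, a difference of 4.72 or 26.4-fold.

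Thbs4, a pentameric thrombospondin of muscle and tendon matrix, had a level of 158 in the normal heart and 1485 in the failed heart. The difference of 3.23, or 9.38-fold, was at rank 11. Ccn2, which binds growth factors and integrins and is a classic target of TGF-beta, went from the normal heart's 2897 to 23772 in the failed heart. It differed by 3.04, or 8.20-fold, at rank 18, and unlike Postn, Ltbp2 and Thbs4 it was already far above its array's median in the normal heart. Spp1, an integrin and CD44 ligand made by macrophages and injured muscle cells, had levels of 88.1 and 300.6, a difference of 1.77 or 3.41-fold, at rank 170.

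Sparc, which binds collagen and helps its assembly, was measured by 2 probe sets, and both were higher in the failed heart. The first, which stands for the gene, had levels of 922 and 1310 and a difference of 0.51, and the second had 403 and 553 and a difference of 0.46. Tnc, an oligomeric protein of wound and embryonic matrix, had levels of 93.2 and 81.3 and a difference of -0.20; it lay below the level filter. Of the measured genes 5 were higher in the failed heart by 2-fold or more, Sparc was higher by less, and Tnc was not higher. The members were chosen with these differences known, so the values do not check the family's name as proteins of injured heart.

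**Figure D1:**
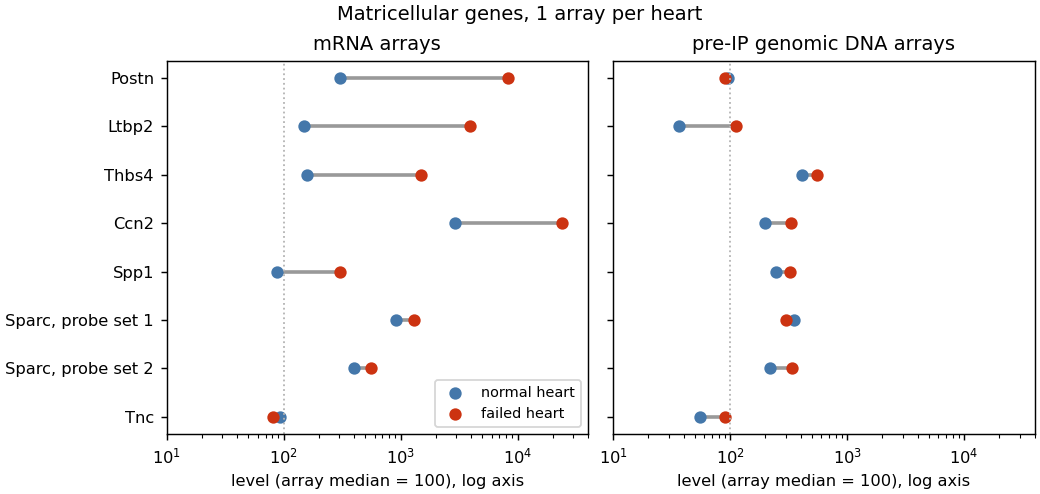
Level of each probe set of the family in the normal (blue) and the failed heart (red), on the mRNA arrays (left) and the pre-IP DNA arrays (right), on a log axis where 100 is the array median (dotted). On the mRNA arrays the red points of Postn and Ltbp2, at 8257 and 3930, lie far right of the blue ones at 301 and 149, and those of Tnc nearly coincide.

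The size of the mRNA differences depended little on the settings. Under the alternatives tried, Postn stayed between 4.36 and 4.78, Ltbp2 between 4.40 and 4.72, Thbs4 between 2.96 and 3.23, Ccn2 between 2.49 and 3.04 and Spp1 between 1.50 and 1.77. Sparc stayed between 0.15 and 0.51 and Tnc between -0.46 and -0.17. Rescaling set the split over all genes: 1092 were at least 2-fold higher and 283 lower, but 556 and 618 with values as deposited and 565 and 523 with quantile normalization. The median over all genes passing the filter moved from 0.23 to -0.04 and 0.01, so the lists below are also given as deposited and with quantile normalization; summed levels are those after rescaling to the median.

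**Figure D2:**
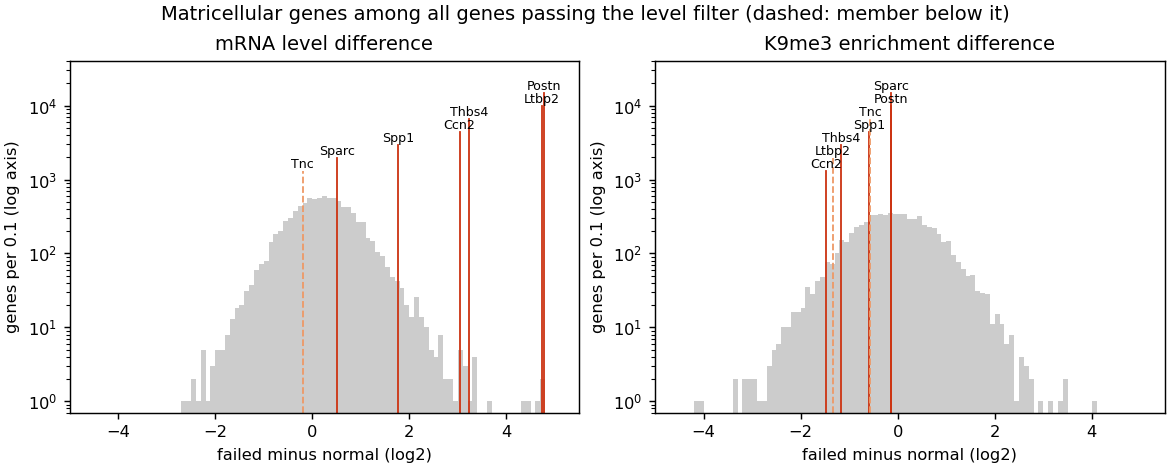
Counts of genes (log axis) by difference, failed minus normal, for mRNA level (left) and K9me3 enrichment (right), in bins of 0.1, with the members as red lines, dashed where a member lay below the level filter. For mRNA, Postn at 4.78 and Ltbp2 at 4.72 lie at the right edge; for K9me3 every member lies left of 0, between Ccn2 at -1.47 and Sparc at -0.13 (0.13 with quantile normalization), within the range of all genes.

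The wider family showed smaller differences. The members were chosen with their mRNA differences known, so this contrast is only a description. Of 20 measured paralogues of the members 13 were bright enough to pass, of which 2 were at least 2-fold higher and 0 lower, with a median of 0.22. Under the scaling as deposited these counts were 1 and 1, with a median of -0.04, and with quantile normalization 1 and 0, with 0.01. Ccn5, a CCN protein that lacks the C-terminal domain of Ccn2, had levels of 39.1 and 331 and a difference of 3.08; like Spp1 it passed the filter only through the failed heart. Ltbp3, which does bind latent TGF-beta, differed by 1.05. At the other end were Dmp1, a mineral matrix protein related to Spp1, at -0.78 and the CCN protein Ccn3 at -0.22.

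Receptors of matricellular proteins, among them integrins, CD36, CD44 and syndecans, were mostly below 2-fold. Of 20 passing the filter 4 were higher and 0 lower, with a median of 0.35; as deposited 3 were higher and 1 lower, with 0.08, and with quantile normalization 3 and 1, with 0.29. The integrin gene Itgb5 differed by 1.74, but its other probe sets ran from -2.59 to 4.21. With levels of 57.8 and 193 it passed the filter only through the failed heart. Itga9, the alpha chain of a receptor for Tnc and Spp1, differed by 1.61, with -0.59 at its other probe set. Lowest were Itga8, a fibroblast and smooth muscle integrin chain, at -0.94, and the syndecan gene Sdc4 at -0.60.

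Genes of the TGF-beta and Hippo pathways, known inputs to Ccn2 and Postn, had 3 of 12 higher and 0 lower, with a median of 0.38. The same counts held as deposited, with a median of 0.12, and 2 of 12 were higher with quantile normalization, with 0.14. Tead1, a DNA-binding partner of the Hippo coactivators, was highest, with levels of 2376 and 6635 and a difference of 1.48, and 1.56 at its other probe set. Wwtr1, the coactivator TAZ, followed at 1.44. With levels of 82.7 and 224 it passed the filter only through the failed heart. Smad3, a transducer of TGF-beta, differed by -0.34, with 0.85 at its other probe set, and Ctnnb1, beta-catenin, by -0.33.

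Matrix partners differed more. Collagens, microfibril genes and crosslinking enzymes had 16 of 31 at least 2-fold higher and 0 lower, with a median of 1.01. The counts were 11 higher and 1 lower as deposited, with a median of 0.74, and 6 and 1 with quantile normalization, with 0.71. Col8a1, a short-chain collagen, differed by 2.52, and Fbn1, the fibrillin to which Ltbp2 binds, by 2.14, with 1.65 at its other probe set. Bmp1, a procollagen protease that Postn is known to bind, differed by -0.82, with 1.42 at its other probe set, and the elastin gene Eln by -0.47, with -3.01.

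Markers of other cells also differed between these hearts. Fibroblast markers had 4 of 11 at least 2-fold higher and 0 lower, a median of 0.89 and a summed level of 29418 in the normal heart and 56273 in the failed heart; 5 of the 12 markers listed are also among the matrix partners. As deposited 3 were higher, with a median of 0.62, and with quantile normalization 2, with 0.66, and 0 were lower under both. Macrophage markers, which bear on Spp1, had 7 of 12 higher and 0 lower, with a median of 1.07. Their summed level was 4859 and 15072, of which Lyz2 made up 1325 and 7658. The number higher fell to 3 as deposited, with a median of 0.80, and to 4 with quantile normalization, with 0.83. Of the 8 myofibroblast markers listed 5 are also in another list, among them Ltbp2 itself, Col8a1 and Acta2. Of the 7 passing the level filter 3 were higher and 1 was lower, Acta2, the smooth muscle actin gene, at -1.13. These counts were the same under both other scalings. The summed level of the list was 1501 and 7821, but 1352 and 3892 without Ltbp2, of which Col8a1 made up 452 and 2598. The myofibroblast marker Meox1, with levels of 67.0 and 226, passed the filter only through the failed heart. No marker of these 3 lists was at the floor in either heart. Their part in the mRNA differences of the family was not tested.

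Other cell types gave lower or mixed values. Smooth muscle and pericyte markers had 1 of 9 higher and 6 lower, a median of -1.11 and a summed level of 7665 and 5954, with the same counts under both other scalings. Endothelial markers had 1 of 8 higher and 0 lower, a median of -0.55 and summed levels of 13822 and 12465. As deposited 0 were past 2-fold, with a median of -0.81, and quantile normalization left 0 higher and 3 lower, with -0.86. Cardiomyocyte markers had 5 of 13 higher and 1 lower, a median of 0.70 and summed levels of 147130 and 208809. The counts were the same as deposited, with a median of 0.43, and 2 higher and 1 lower with quantile normalization, with 0.31. Platelet markers, relevant to the thrombospondins, had 0 of 2 past 2-fold, a median of 0.14 and summed levels of 921 and 1152, and red blood cell markers 1 of 3 higher, a median of 0.89 and summed levels of 1229 and 4359. Both counts held under the other scalings, while the platelet median turned to -0.13 as deposited and -0.04 with quantile normalization. Pf4 made up 674 and 1013 of the platelet sums, and the other measured platelet markers were lower in the failed heart. Hbb made up 889 and 3880 of the red blood cell sums, while Epb42 had levels of 69.8 and 12.5. Control probe sets gave 3′ to 5′ ratios of 11.3 (normal) and 22.6 (failed) for GAPDH and of 18.2 and 12.4 for beta-actin on the mRNA arrays. The part of these in the mRNA differences was not tested.

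**Figure D3:**
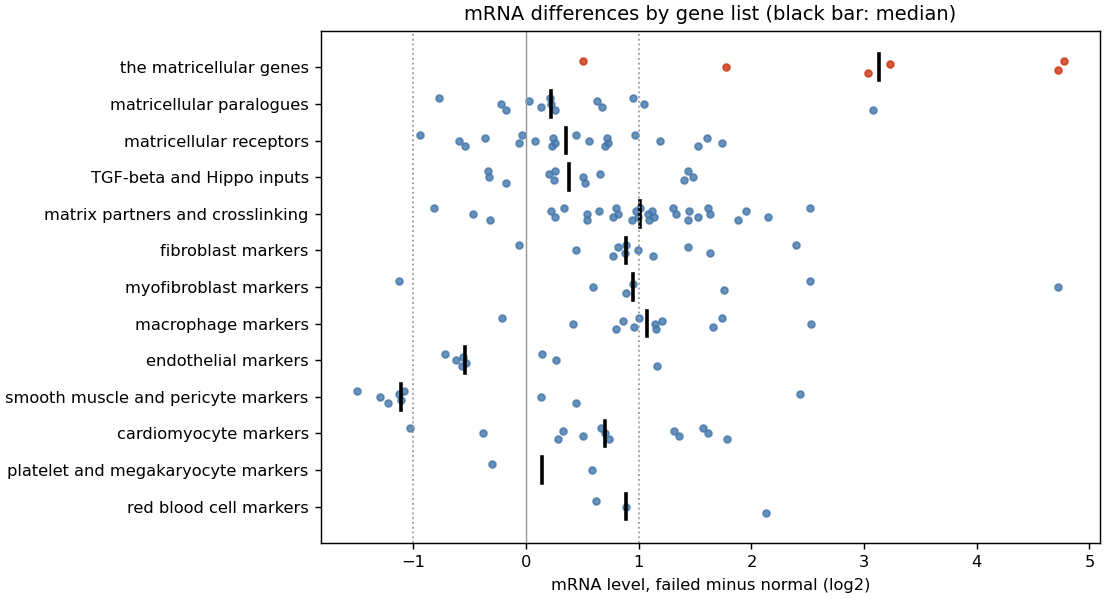
mRNA difference (failed minus normal, log2) of each gene passing the level filter, by gene list, with the family in red and the median of a list as a black bar; dotted lines mark 2-fold. The family's median of 3.13 over the 6 genes passing the filter lies right of the matrix partners' 1.01 and the smooth muscle markers' -1.11. The family was chosen with its mRNA differences known.

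Genomic DNA before immunoprecipitation gave the background at the same probe sets. Of the 4 genes bright enough to pass there, 0 were past 2-fold, against 7.37% of all genes either way. Ltbp2 was below that filter, with pre-IP levels of 36.6 in the normal heart and 111 in the failed heart, a difference of 1.60. The others ran from -0.23 for Sparc to 0.74 for Ccn2, and 5 of 7 were above 0, with a median of 0.43. The same pre-IP value is subtracted for all 8 marks of a gene, so every enrichment of Ltbp2 in the normal heart carries its low value there.

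Histone acetylation and methylation of lysine 4 of H3 are generally found at active genes, whereas methylation of lysines 9 and 27 of H3 and 20 of H4 is mostly tied to silent chromatin. The comparison of marks asked whether chromatin at the family differed between the hearts. Over the 8 marks and 7 genes there were 56 pairs, of which 4 were at least 2-fold higher in the failed heart and 13 lower. On the ChIP arrays alone, without pre-IP subtraction, 6 were higher and 3 lower, so the balance turned round. Of the 38 pairs that passed the level filter 1 was higher and 7 were lower, 8 in all, while 17.9% of all such pairs over all genes were past 2-fold either way. On the ChIP arrays alone 2 of these 38 were higher and 3 lower, and 4 of the 8 remained past 2-fold the same way. The family's values are shown in the heat map of enrichments.

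**Figure D4:**
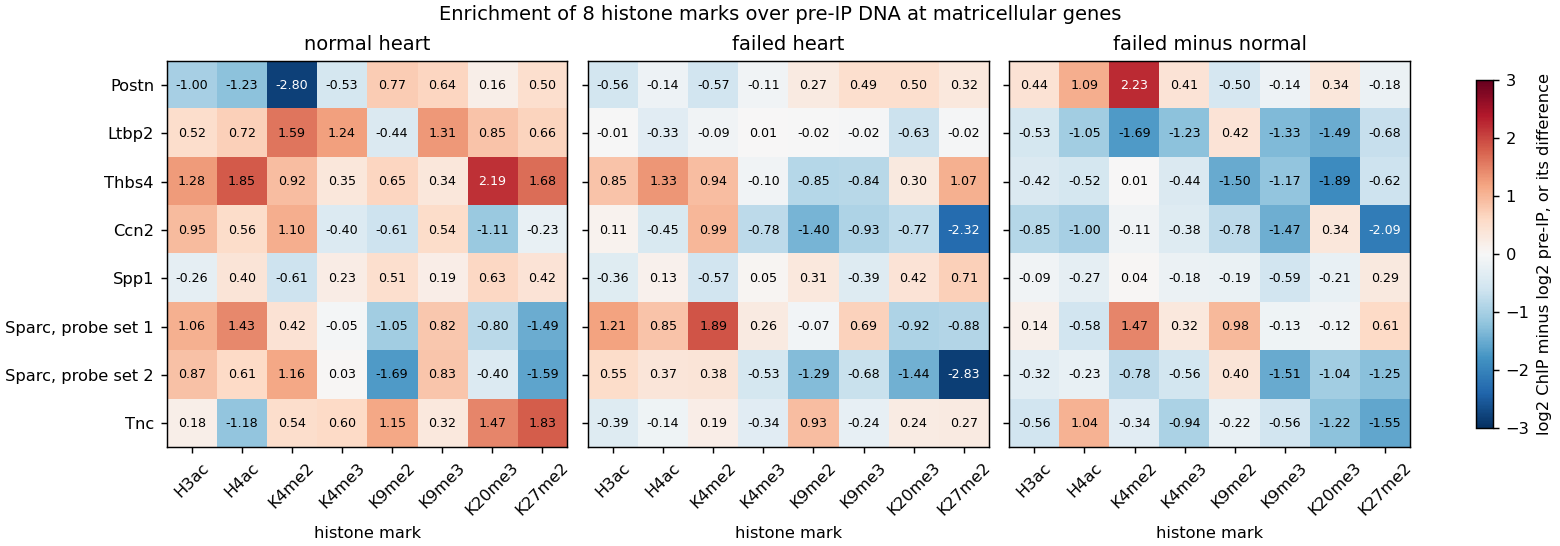
Enrichment (ChIP over pre-IP, log2) of 8 histone marks (columns) at each probe set (rows) in the normal heart, the failed heart, and as the difference, with red above and blue below 0. The K9me3 column of the difference is below 0 in every row with this scaling, and the lowest value of that panel is K27me2 at Ccn2, -2.09.

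Acetylation over pre-IP was mostly lower or little different at the family in the failed heart. For H3ac 0 of 4 genes passing the level filter were past 2-fold, against 19.2% of all genes, and the 7 genes ran from -0.85 for Ccn2 to 0.44 for Postn, with a median of -0.42. For H4ac 1 of 4 was past 2-fold, Ccn2 at -1.002, against 11.3% of all genes, with a median of -0.52 over the 7. That value of Ccn2 was under 2-fold as deposited, at -0.95, and on the ChIP arrays alone, at -0.26. On the ChIP arrays alone, without pre-IP, the medians were 0.16 for H3ac and 0.13 for H4ac, so their sign depended on the pre-IP subtraction.

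At lysine 4 the family was split over pre-IP. For K4me2 1 of 4 was past 2-fold, Sparc at 1.47, against 18.1% of all genes, but the second probe set of Sparc gave -0.78. The difference of Sparc was 0.79 with quantile normalization and 0.35 with the probe sets averaged, both under 2-fold. For K4me3 0 of 4 were past 2-fold, against 18.6%, and the 7 genes ran from -1.23 for Ltbp2 to 0.41 for Postn. The medians were 0.01 for K4me2 and -0.38 for K4me3. On the ChIP arrays alone they were 0.44 and 0.22, and 6 of 7 genes were above 0 for K4me2.

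K9me3 over pre-IP was lower in the failed heart at each gene. Its enrichment was above 0 at all 7 genes in the normal heart, from 0.19 for Spp1 to 1.31 for Ltbp2, with a median of 0.54, against 0.03 over all genes. In the failed heart it was above 0 at 2 of 7, Sparc at 0.69 and Postn at 0.49, with a median of -0.24. The other marks were above 0 at 4 or 5 of 7 genes in the normal heart. Their medians over the 7 genes there ran from 0.23 for K4me3 to 0.63 for K20me3, and each was lower in the failed heart. All 7 differences of K9me3, and that of the second probe set of Sparc at -1.51, were below 0. Of the 7 genes 5 passed the level filter for this mark, all but Tnc and Ltbp2. Of all genes passing it 53.6% were below 0. Past 2-fold were 2 of 5, Ccn2 at -1.47 and Thbs4 at -1.17, against 20.5% of all genes. On the ChIP arrays alone 5 of 7 genes were below 0, with a median of -0.25, and Ltbp2 and Tnc were above 0, at 0.27 and 0.16. None of the 7 was then past 2-fold, with Ccn2 at -0.73 and Thbs4 at -0.74. With quantile normalization 6 of 7 differences were below 0, and that of Sparc was 0.13.

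For the other marks 1 or 2 members were past 2-fold. Like those of K9me3 and the marks before it, these counts are too small to set apart from the shares over all genes. For K9me2 1 of 6 was past 2-fold, Thbs4 at -1.50, against 25.1% of all genes. For K20me3 1 of 5 was, Thbs4 at -1.89, against 17.3%. For K27me2 2 of 6 were, Ccn2 at -2.09 and Tnc at -1.55, against 13.2%, and that of Tnc was -0.83 on the ChIP arrays alone. The medians over the 7 genes were -0.22 for K9me2, -0.21 for K20me3 and -0.62 for K27me2. On the ChIP arrays alone they were 0.20, 0.11 and -0.18, so the first 2 changed sign.

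Thbs4 had levels between 309 and 1882 on the DNA arrays, above the array median on each. Its H4ac enrichment was 1.85 in the normal heart and 1.33 in the failed heart, and its H3ac enrichment 1.28 and 0.85. Its K20me3 level was 1882 in the normal heart and 687 in the failed heart, against pre-IP levels of 412 and 556, so the enrichment went from 2.19 to 0.30. K9me2 went from a level of 648 to 309 and K9me3 from 520 to 311. These 3 marks were thus lower and mRNA was higher in the failed heart, and the K20me3 and K9me2 differences remained past 2-fold on the ChIP arrays alone, at -1.45 and -1.07.

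Ccn2 had 7 of its 8 mark differences over pre-IP below 0, with a pre-IP difference of 0.74. On the ChIP arrays alone 3 of the 8 were above 0, K20me3, K4me2 at 0.63 and K4me3 at 0.36. H3ac and K9me2 were then at -0.11 and -0.05, so the count depended on the pre-IP subtraction. Its K27me2 level was 169 in the normal heart and 66.5 in the failed heart, with pre-IP levels of 199 and 332. That gives enrichments of -0.23 and -2.32, a difference of -2.09, and -1.35 on the ChIP arrays alone. K9me3 went from a level of 290 to 174. K20me3 was the exception over pre-IP, with levels of 92.3 and 195 and an enrichment difference of 0.34, or 1.08 on the ChIP arrays alone. K4me2, at 427 and 658, was enriched by 1.10 and 0.99 in the 2 hearts, while H3ac was enriched by 0.95 in the normal heart and 0.11 in the failed heart.

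Postn, with the largest mRNA difference, was dim on the DNA arrays, with pre-IP levels of 96.3 and 89.4. Its K4me2 level was 13.8 in the normal, near the floor of 10, and 60.2 in the failed heart, which gives enrichments of -2.80 and -0.57 and a difference of 2.23. With the floor at 50 that difference was 0.37. H4ac, at 41.1 and 81.1, differed by 1.09, by 0.80 with the floor at 50, by 0.91 with quantile normalization and by 0.98 on the ChIP array alone. Both pairs lay below the level filter. Of its 8 marks 5 were higher and 3 lower, and those past 2-fold were K4me2 and H4ac.

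Ltbp2 had opposite signs with and without its pre-IP values, which differed by 1.60. Over pre-IP 7 of its 8 marks were lower, 5 of them by 2-fold or more, from -1.05 for H4ac to -1.69 for K4me2, and K9me2 was higher, at 0.42. On the ChIP arrays alone 7 of 8 were higher, with K9me2 at 2.02, H3ac at 1.08, K27me2 at 0.92 and H4ac at 0.55, and K4me2 was at -0.09. All of its pairs lay below the level filter. Its failed-heart levels were between 71.6, for K20me3, and 112, for K4me3, on all ChIP arrays, and each failed enrichment was between -0.63 and 0.01.

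Spp1 was the member with the smallest mark differences, from -0.59 for K9me3 to 0.29 for K27me2, although its mRNA differed by 1.77. Sparc was above pre-IP for acetylation and below it for K27me2 in both hearts at its first probe set. H3ac enrichments there were 1.06 and 1.21, H4ac 1.43 and 0.85, and K27me2 -1.49 and -0.88. The second probe set of Sparc had K27me2 at -1.59 and -2.83, also below 0 in both hearts, but its difference of -1.25 opposed the first one's 0.61. Tnc, whose mRNA was about equal, had K27me2 at 1.83 and 0.27 and K20me3 at 1.47 and 0.24. Its pre-IP levels were 54.9 and 90.7, and on the ChIP arrays alone these marks differed by -0.83 and -0.50. Its K20me3 and H4ac pairs lay below the level filter. The H4ac difference of 1.04 came from a level of 24.2 in the normal heart and 82.3 in the failed heart. That difference was 0.67 with quantile normalization and -0.0040 with the floor at 50.

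**Figure D5:**
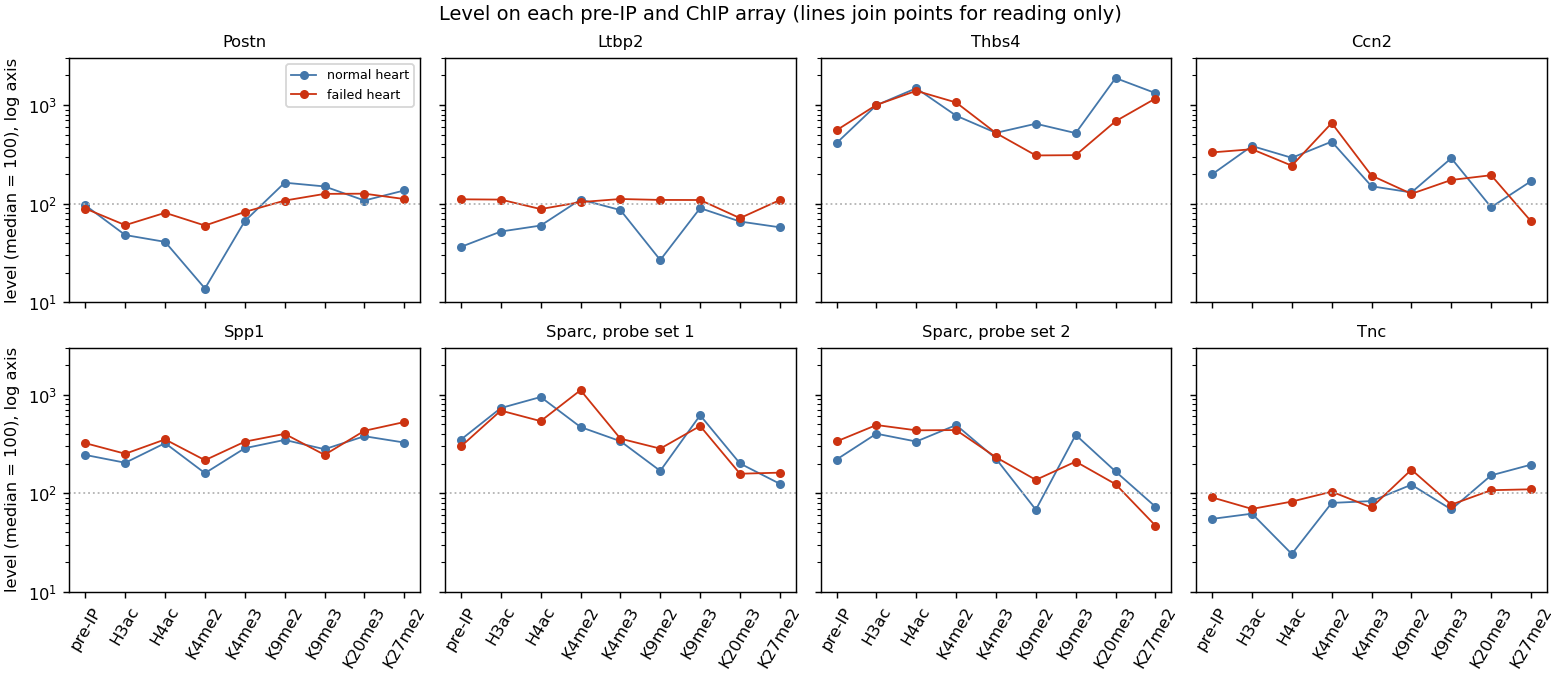
Level of each probe set on the pre-IP array and the 8 ChIP arrays of the normal (blue) and the failed heart (red), on a log axis where 100 is the array median (dotted); lines only join the points. Thbs4 lies above 100 on all arrays, with K20me3 at 1882 in blue and 687 in red, while the pre-IP point of Ltbp2 is at 36.6 in blue and 111 in red.

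Genes with the most similar profile were found over the 10 differences, mRNA, pre-IP and the 8 ChIP arrays without pre-IP subtraction. The search covered 9143 of the genes passing the mRNA level filter. Symbols beginning with LOC, RGD, AABR or a digit were left out, as was the member itself. Mllt11 and Gpx4 were nearest to Postn, with Pearson's r of 0.96 and 0.96, Rala and Lmod2 to Ltbp2 with 0.96 and 0.93, Nr2c2ap and Slc35b2 to Thbs4 with 0.97 and 0.97, and Uqcrfs1 and Prkar1a to Ccn2 with 0.93 and 0.93. For Spp1 they were Gyg1 and Cct5 with 0.98 and 0.96, for Sparc Serf1 and Apol11a with 0.96 and 0.93, and for Tnc, among 9144 genes, Lap3 and Zfp513 with 0.87 and 0.84. Between members r was highest for Thbs4 and Spp1, at 0.89, and for Postn and Thbs4, at 0.88. Each r rests on 10 points from the same 20 arrays, and at 5 of the 7 members the mRNA difference was the largest of the 10 in size.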

How the data were processed

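The deposited table holds 1 intensity per probe set and array on a linear scale, for 31099 probe sets on 20 arrays. No source used here names the tool with which the authors summarised and scaled these deposited intensities; every array has a mean between 500.03 and 500.17 after removal of 2% of values at each end. Per the labels' protocols, RNA was amplified to biotin-labelled cDNA, and DNA was fragmented, amplified by T7 transcription and labelled.

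All arrays were rescaled to the same median, 100, a floor of 10 was set (2.14% to 11.0% of probe sets per array) and log2 was taken, with Python 3.11.15, numpy 2.4.6 and pandas 2.3.3. Of the probe sets, 20826 had a single gene symbol; 436 with several and 9780 unlisted were left out, as were 57 controls. Where a gene had several probe sets, the brightest on the mRNA arrays stood for it. The members and the 12 other lists were chosen with earlier results of these data known. From each of the 4 lists of related genes the 2 highest and 2 lowest mRNA differences passing the level filter were named. The counting was tested on simulated data. Alternatives were deposited scaling, quantile normalization, floors of 50 and 1, averaged probe sets, no pre-IP subtraction and no level filter.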

Additional observations from a re-analysis of the deposited data

How the results depend on the processing

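With 1 array per group no replicate could be left out, and no alternative carries a test. No paired analysis was possible because each group has a single array. A value counted as moved when it changed by more than 0.56, the SD of the pre-IP differences over all genes passing the filter. All 35 mRNA values of single members under alternatives, and 305 of 336 enrichment differences, stayed within it. Many of these could not change. Every member's mRNA level was above 50, so neither floor touched it, and averaging probe sets touched only Sparc. The floor of 1 likewise touched no enrichment difference of a member. Most enrichment differences that changed by more did so without pre-IP subtraction. The number of pairs at least 2-fold higher, 4 in the report, was 1 with quantile normalization and 1 with the floor at 50, where the H4ac difference of Tnc was -0.0040. Without pre-IP subtraction 6 pairs were higher and 3 lower, against 4 and 13 in the report, and the medians were 0.16 for H3ac, 0.13 for H4ac and 0.22 for K4me3; Ltbp2 then turned to 0.55 for H4ac, 0.37 for K4me3, 0.27 for K9me3 and 0.11 for K20me3. Low signal limits the enrichments of Postn, Tnc and Ltbp2, whose levels were under the array median on 10, 11 and 10 of the 18 DNA arrays and passed the level filter for 4, 2 and 0 marks. Over all genes 1092 were at least 2-fold higher in mRNA and 283 lower; these were 556 and 618 as deposited, 565 and 523 with quantile normalization, and 2108 and 1258 with no level filter.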
